A study of Mus musculus with 8 samples.

Results

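The genes described here are 10 that encode smooth muscle actin, other contractile proteins and a pair of secreted matrix proteins, namely Acta2, Actg2, Tagln, Cnn1, Cnn2, Myl9, Tpm1, Tpm2, Ccn1 and Ccn2. They were chosen by symbol, around the level of Acta2 with Sin3a alone, which was known beforehand from these same arrays. All probes that the array annotation gives to these symbols were taken and kept apart, which made 24 of the 45281 probes on the array. They were measured in female mouse pre-iPSCs, which are cells stalled partway through reprogramming, here made from neural stem cells of strain 129/MF1. All cells carried an Oct4-GFP-IRES-puro reporter and PiggyBac vectors with the CAG promoter, grew in serum and LIF, were selected with hygromycin, blasticidin or both, and were taken at day 0, before any change of medium. The 4 groups of 2 arrays each carried empty vectors in both positions (EV), Nanog with an empty vector, Sin3a with an empty vector, or both Nanog and Sin3a (Nanog+Sin3a). Nothing in the labels tells whether a group's arrays came from separate cultures, so every p-value here reflects only how far these arrays spread.

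Smooth muscle cells contract by sliding actin filaments past myosin, and Acta2 (alpha) and Actg2 (gamma) are their muscle-type actins. Transgelin, calponin and the tropomyosins bind along the filament, and Myl9 is a regulatory light chain of myosin. Many of these genes are bound by serum response factor (SRF), which reads the CArG box and works with myocardin or with the MRTF cofactors, and MRTF enters the nucleus when free actin is used up. Ccn1 and Ccn2 are matrix proteins read widely as targets of YAP and TEAD, and of SRF, in cells that sense tension. Outside muscle, Acta2 is a marker of myofibroblasts.

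The stretch just before the transcription start shows which members carry these motifs. RefSeq promoters of build GRCm38.p6 were in the table given for 7 of the 10 members, Acta2, Ccn1, Cnn1, Cnn2, Myl9, Tpm1 and Tpm2. The 250 bases before the start were searched on both strands for the CArG box, for a CArG box with 1 G or C in its centre, and for the TEAD core GGAATG, which is CATTCC on the other strand. No matches of these motifs overlapped in the windows shown. The promoters of Acta2, Ccn1 and Cnn2 are printed because they hold, in turn, the looser CArG box with a TEAD core, a TEAD core alone, and a full CArG box alone. They lie at chr19:34255374-34255623 on the minus strand, chr3:145649986-145650235 on the minus strand and chr10:79988350-79988599 on the plus strand, each written 5′ to 3′ with the matches in capitals.
Acta2: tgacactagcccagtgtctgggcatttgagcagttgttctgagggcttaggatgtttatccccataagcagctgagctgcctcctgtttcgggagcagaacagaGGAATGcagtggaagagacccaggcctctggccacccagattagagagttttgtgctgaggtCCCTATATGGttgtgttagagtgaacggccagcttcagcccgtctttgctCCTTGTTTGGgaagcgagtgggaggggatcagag
Ccn1: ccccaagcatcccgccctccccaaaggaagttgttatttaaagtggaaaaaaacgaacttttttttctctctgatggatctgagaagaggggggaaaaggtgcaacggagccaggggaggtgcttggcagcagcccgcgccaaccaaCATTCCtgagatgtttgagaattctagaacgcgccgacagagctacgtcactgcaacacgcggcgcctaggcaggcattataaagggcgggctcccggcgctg
Cnn2: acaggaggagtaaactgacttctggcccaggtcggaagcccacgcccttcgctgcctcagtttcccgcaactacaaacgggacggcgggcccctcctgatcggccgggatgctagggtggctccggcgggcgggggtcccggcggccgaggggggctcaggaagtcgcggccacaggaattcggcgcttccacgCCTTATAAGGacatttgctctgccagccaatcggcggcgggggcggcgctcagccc
Acta2 held 2 of the looser CArG boxes, at 84 to 75 and at 34 to 25 bases before the start, and 1 TEAD core at 146 to 141. Part of its window lies inside the outer bounds of the gene record, which runs from 34240336 to 34255585 on chromosome 19. Ccn1 held a TEAD core at 103 to 98 bases before its start, and Tpm1 held one at 56 to 51. The full CArG box was in Cnn2, at 56 to 47 bases, and in Myl9, at 161 to 152, and Myl9 also had a looser one. Over the 32851 promoter windows of the table, 1.47% held the full CArG box, 7.24% the looser one and 12.6% the TEAD core. A match describes the letters and says nothing of binding in these cells.

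The values are background-subtracted intensities per probe, and anything below 16, the floor used here, was raised to it before log2 was taken. The second Sin3a array stood apart at low and middle intensity. Among probes with a mean log2 from 5 to 8, 78.8% differed by more than 1 log2 unit between the 2 Sin3a arrays, against 0.271% to 2.92% in the other groups. Among probes above a mean log2 of 9 that share was 0.224% for Sin3a. Levels of dim probes are therefore given for the first Sin3a array and the second apart. Comparisons without the Sin3a group were fitted on the 7 other arrays over 18558 probes, and those with it on all 8 arrays over the 2670 bright probes, those above a mean log2 of 9. The brighter Nanog probe and the single Sin3a probe followed the labels. The brighter Nanog probe read 364.8 and 485.8 with Nanog and 289.5 and 285.2 with both, and was below 0 on the other arrays. A dimmer probe for Nanog read from -4.8 to 21 and did not separate the groups. The Sin3a probe read 1182.1 and 1141.6 with Sin3a, 1484.7 and 1483.3 with both, and 261.8 to 472.5 elsewhere.

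Of the 24 member probes, 13 were above the floor on at least 2 of the 7 arrays and were tested, covering 7 genes, and 11 were not. The tested ones were 4 of 6 probes for Acta2, 2 of 2 for Ccn2, 2 of 3 for Ccn1, 2 of 3 for Tpm1, and 1 each for Actg2, Cnn2 and Tpm2. Both Tagln probes and the single probes of Cnn1 and Myl9 were below the floor on all 7 arrays. The bright ones were 1 for Acta2 and 1 for Tpm1.

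Acta2, the alpha actin, had its lowest level with empty vectors, the next with both transgenes, then with Nanog alone, and highest with Sin3a alone. Its brightest probe, ILMN_2693895, read 473.5 and 408.2 in the EV arrays and 710.7 and 718.0 in the Nanog arrays. In the Sin3a arrays it read 850.8 and 940.3, and in the Nanog+Sin3a arrays 566.2 and 443.3. Both single-transgene groups lay wholly above EV and above Nanog+Sin3a, and EV and Nanog+Sin3a overlapped. As means with the SD of 2 arrays, the levels were 441 ± 46.2 for EV, 505 ± 86.9 for Nanog+Sin3a, 714 ± 5.16 for Nanog and 896 ± 63.3 for Sin3a. In these bulk samples, fewer cells that make a transcript and less of it per cell cannot be told apart.

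The second probe of Acta2 gave the same order on the 7 arrays where dim values could be read. It read 76.2 and 71.0 with EV, 129.7 and 142.5 with Nanog, 148.2 on the first Sin3a array, and 78.4 and 93.0 with both. On the second Sin3a array it read 21.3, where the brightest probe had its highest value. Probe 3 read 41.6 and 31.3, then 55.6 and 64.4, then 64.9, then 41.1 and 62.5 in the same order of groups, so Nanog+Sin3a overlapped Nanog here. Probe 4 read 34.6 and 39.0, 50.6 and 52.9, 43.6, and 23.3 and 37.4, with Nanog above the single Sin3a value. The second Sin3a array read -7.0 and 8.9 on these last probes. Over the 7 arrays, the log2 values of probes 2, 3 and 4 had Pearson correlations of 0.90, 0.67 and 0.45 with the brightest, as a description over arrays that share their normalisation. The other Acta2 probes never rose above 9.1.

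**Figure D1:**
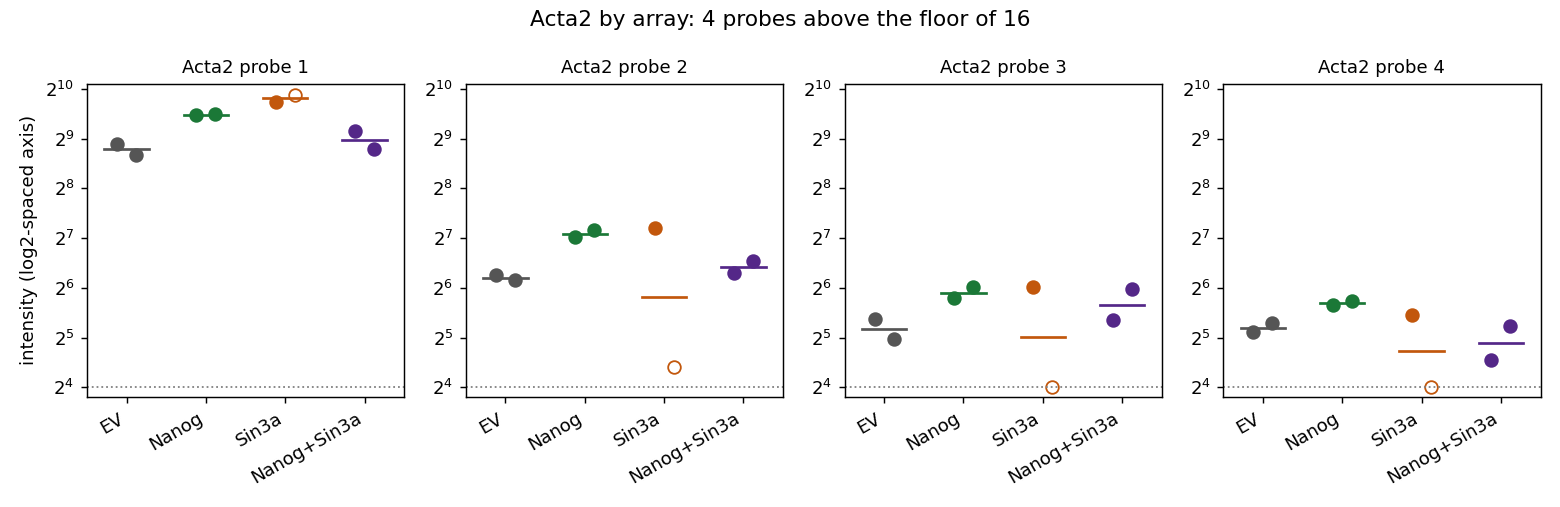
Intensity of the 4 Acta2 probes above the floor (vertical axis, spaced in log2) on each array of the 4 groups (horizontal axis). Points are arrays and lines are group means of the log2 values with the floor applied. The open point is the noisy second Sin3a array and the dotted line is the floor of 16. On probe 1 the Nanog and Sin3a points lie at 710.7 or above and the EV and Nanog+Sin3a points at 566.2 or below, and the Sin3a line of probes 2 to 4 is pulled down by the open point.

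With Nanog alone, Acta2 was 0.70 ± 0.14 log2 units (SE) above EV on its brightest probe, a 1.62-fold difference, and 0.89 ± 0.16 on the second, 1.85-fold. The adjusted p-values from limma were 0.0664 and 0.0511, which miss 0.05. Probes 3 and 4 were 0.73 ± 0.27 and 0.49 ± 0.27 higher (adjusted p = 0.230 and 0.390). When only the bright probes of all 8 arrays were fitted, 264 of 2670 probes (9.89%) were called in this comparison, and the Acta2 probe was among them (adjusted p = 0.00520). The EV arrays in this comparison are the ones that also entered the choice of the gene.

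With Sin3a alone, the brightest Acta2 probe was 1.02 ± 0.15 log2 units above EV, or 2.03-fold. The members were chosen on this difference, so it is a description. It was 1 of 4 probes called among the 2670 bright ones (0.15%). On the 7 arrays, where the first Sin3a array stands alone and is assumed to vary like the others, the 4 Acta2 probes were 0.95, 1.01, 0.85 and 0.25 log2 units above EV. In that fit 0 of 18558 probes (0%) were called, with 658 at an unadjusted p under 0.05. Without the second EV array the bright-probe difference was 0.92 and the probe was no longer called.

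With both transgenes together, the Acta2 differences from EV were small on the brightest and second probes and mixed in direction on the others. The brightest probe was 0.19 ± 0.14 log2 units above EV (adjusted p = 0.459) and the second 0.22 ± 0.16 (adjusted p = 0.457). Probes 3 and 4 differed by 0.49 and -0.32, with adjusted p of 0.336 and 0.516. None of these differences passed the threshold, which does not show that the levels were equal. On the second probe the Nanog+Sin3a arrays lay wholly above EV, as they did for 27.3% of all probes tested.

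The Acta2 values with the pair lay below those with each transgene alone, by less than the test could call against Nanog. The transgenes themselves also differed between these groups. The brighter Nanog probe read 289.5 and 285.2 with both, against 364.8 and 485.8 with Nanog alone. The Sin3a probe read 1484.7 and 1483.3 with both, against 1182.1 and 1141.6 with Sin3a alone. The part of these transgene levels in the Acta2 values was not tested. Relative to Nanog, the brightest probe was at 0.701 of the level (-0.51 ± 0.14 log2 units) and the second at 0.628 (-0.67 ± 0.16). The other tested probes differed by -0.24 and -0.81. This comparison shares no array with the one that chose the gene, but it too was set with earlier results of these data known. None of its 4 Acta2 probes passed in limma (adjusted p = 0.306, 0.268, 0.799 and 0.374). Relative to Sin3a, the brightest probe was at 0.560 of the level (-0.84 ± 0.15) in the bright-probe fit. That comparison uses the Sin3a arrays through which the gene was chosen, so the value is a description beside the 309 of 2670 bright probes (11.6%) that were called in it, of which it was 1. In the 7-array fit, which called 198 probes (1.07%) and 0 members (4 at an unadjusted p under 0.05), the 4 Acta2 probes were at -0.76, -0.80, -0.36 and -0.56 log2 units.

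The interaction is the effect of Sin3a with Nanog minus its effect without Nanog, and 0 would mean that the effects add on the log2 scale. For the brightest Acta2 probe it was -1.54 ± 0.21 log2 units. It contains the difference that chose the gene and is likewise given as a description. Transgene levels differed between the pair and each transgene alone, as given above, and their part in it was not tested. The Acta2 value was the lowest of the 2670 bright probes, and its probe was the 1 called (0.0375%). An unnamed probe followed at -0.92, then the creatine kinase gene Ckb at -0.81 and the membrane protein gene Ifitm1 at -0.76. On the 7 arrays the 4 Acta2 probes had interactions of -1.46, -1.68, -1.09 and -1.06, and 0 of 18558 probes (0%) were called, with 954 at an unadjusted p under 0.05. Without the second EV array the bright-probe value was -1.43 and was not called.

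**Figure D2:**
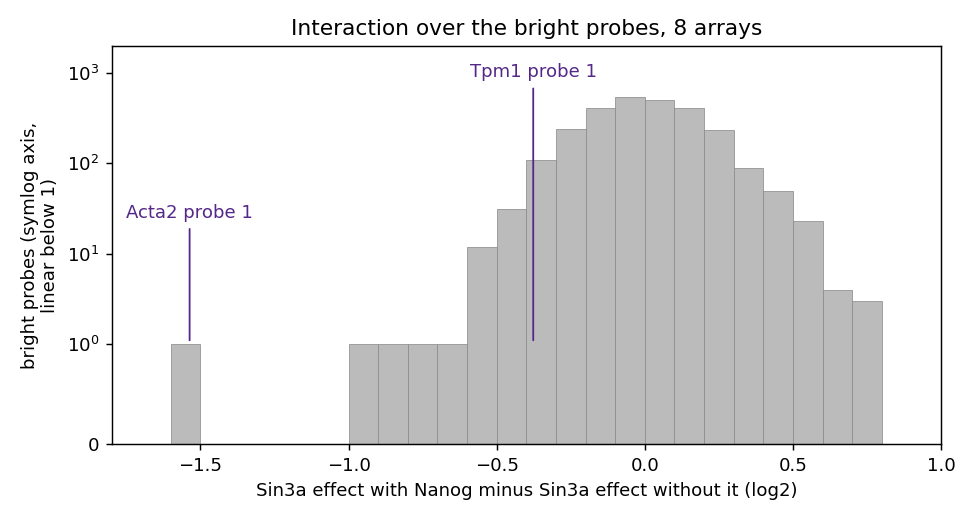
Number of bright probes (vertical axis, log-spaced above 1 and linear below) by interaction in log2 units (horizontal axis, bins of 0.1) over the 2670 bright probes and 8 arrays. The Acta2 probe at -1.54 stands apart on the left, and the Tpm1 probe at -0.38 lies within the left shoulder of the main mass.

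Actg2, the gamma actin of smooth muscle, stayed near the floor. Its probe read 19.7 and 28.1 with EV, 18.5 and 20.5 with Nanog, 11.6 on the first Sin3a array and 1.9 on the second, and 13.5 and 21.9 with both. The EV and Nanog+Sin3a ranges overlapped, and so did those of EV and Nanog. It differed from EV by -0.27 ± 0.25 log2 units with Nanog (adjusted p = 0.627) and by -0.33 ± 0.25 with both (adjusted p = 0.474). These values were in the opposite direction to those of Acta2 with Nanog alone, and neither passed.

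Among the calponins, transgelin and the myosin light chain, only Cnn2 had a probe that could be tested. Tagln read at most 3.2 and Cnn1 at most 13.3 on any of the 8 arrays. Myl9 was below the floor on all arrays but the noisy one, where it read 16.3. Cnn2, the calponin of non-muscle cells, read 35.2 and 51.8 with EV, 37.7 and 51.6 with Nanog, 60.6 on the first Sin3a array and -9.7 on the second, and 73.8 and 61.9 with both. The Nanog+Sin3a arrays were the highest and did not overlap EV or Nanog. The difference from EV was 0.66 ± 0.27 log2 units, or 1.58-fold (adjusted p = 0.200), and that from Nanog 0.62 ± 0.27 (adjusted p = 0.511), so neither passed. The other Cnn2 probe was above the floor on the noisy array alone, at 45.1.

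The tropomyosins, which lie along the groove of the filament, did not share 1 pattern. Tpm1 was close to flat. Its bright probe read 1211.2 and 1204.7 with EV, 1278.5 and 1268.3 with Nanog, 1343.1 and 1333.1 with Sin3a, and 1185.0 and 996.1 with both. The order of the groups was EV, Nanog, Sin3a from low to high with no overlap, and Nanog+Sin3a lay below all of them. In the bright-probe fit it was 0.15 ± 0.11 log2 units higher with Sin3a than with EV (adjusted p = 0.818) and differed by -0.30 ± 0.11 between Nanog+Sin3a and Sin3a (adjusted p = 0.0872). Its interaction was -0.38 ± 0.16 (adjusted p = 0.753). The second Tpm1 probe read 363.1 to 583.9 on the 7 arrays and 471.5 on the noisy second Sin3a array. Its difference from EV was 0.38 ± 0.18 with Nanog (adjusted p = 0.326) and 0.14 with both.

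Tpm2, the beta tropomyosin of muscle, was above the floor with Nanog alone and on the noisy second Sin3a array. One probe read 45.9 and 40.8 with Nanog, 0.0 and -8.5 with EV, -5.6 and 0.4 with both, and -12.5 on the first Sin3a array. On the noisy second Sin3a array it read 62.2. Against the floor, the Nanog level was at least 2.70-fold higher than EV (1.44 ± 0.17 log2 units, adjusted p = 0.0177) and than Nanog+Sin3a (adjusted p = 0.131). The probe entered the test only through the Nanog arrays, so that it differed there is partly set by the filter. The call was lost without either EV array, without either Nanog+Sin3a array and with a floor of 32 (0.44 log2 units), and with a Nanog array left out the probe could not be tested. The other Tpm2 probes were below the floor on the 7 arrays, at 9.2 or less, so the pattern rests on 1 of 3 probes. On the noisy second Sin3a array 1 of these others read 71.6.

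Among the matrix proteins, Ccn2 rose with both transgenes. Its brighter probe read 198.9 and 163.3 with EV, 272.1 and 279.6 with Nanog, 317.9 on the first Sin3a array, and 275.9 and 324.7 with both. All of the other groups lay above EV on these arrays, and the second Sin3a array read 80.3. Nanog+Sin3a was 0.73 ± 0.14 log2 units above EV, 1.66-fold (adjusted p = 0.0355). Nanog alone was 0.61 ± 0.14 above EV (adjusted p = 0.0902), and the first Sin3a array 0.82 ± 0.17. Between Nanog+Sin3a and the single transgenes no difference passed, at 0.12 ± 0.14 against Nanog (adjusted p = 0.808) and -0.09 ± 0.17 against the first Sin3a array (adjusted p = 0.868). The dimmer Ccn2 probe did not follow, at 61.6 and 63.0 with EV, 79.7 and 52.7 with Nanog, 91.2 on the first Sin3a array and 3.2 on the second, and 66.7 and 65.1 with both.

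Ccn1 was dim, and its probes differed in where they were high. The brighter one read 31.9 and 23.7 with EV, 59.8 and 47.0 with Nanog, 49.9 on the first Sin3a array and -10.3 on the second, and 38.9 and 49.1 with both. EV was the lowest group on the 7 arrays without the noisy one, and the differences from EV were 0.95 ± 0.25 log2 units with Nanog (adjusted p = 0.129) and 0.67 ± 0.25 with both (adjusted p = 0.171). The dimmer one read 17.6 and -0.3 with EV, 13.3 and 20.4 with Nanog, 16.1 on the first Sin3a array and -2.1 on the second, and 35.4 and 40.9 with both. Here only Nanog+Sin3a stood clear, at 1.18 ± 0.20 log2 units or 2.27-fold above EV with values under 16 raised to it (adjusted p = 0.0292). Its difference from Nanog was 1.07 ± 0.20 (adjusted p = 0.224). The calls of Ccn1 and Ccn2 in Nanog+Sin3a were lost in 6 of the 7 fits that left out 1 array; only the fit without the first Sin3a array kept both. With a floor of 32 the difference of the dimmer Ccn1 probe was 0.25 and was not called.

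**Figure D3:**
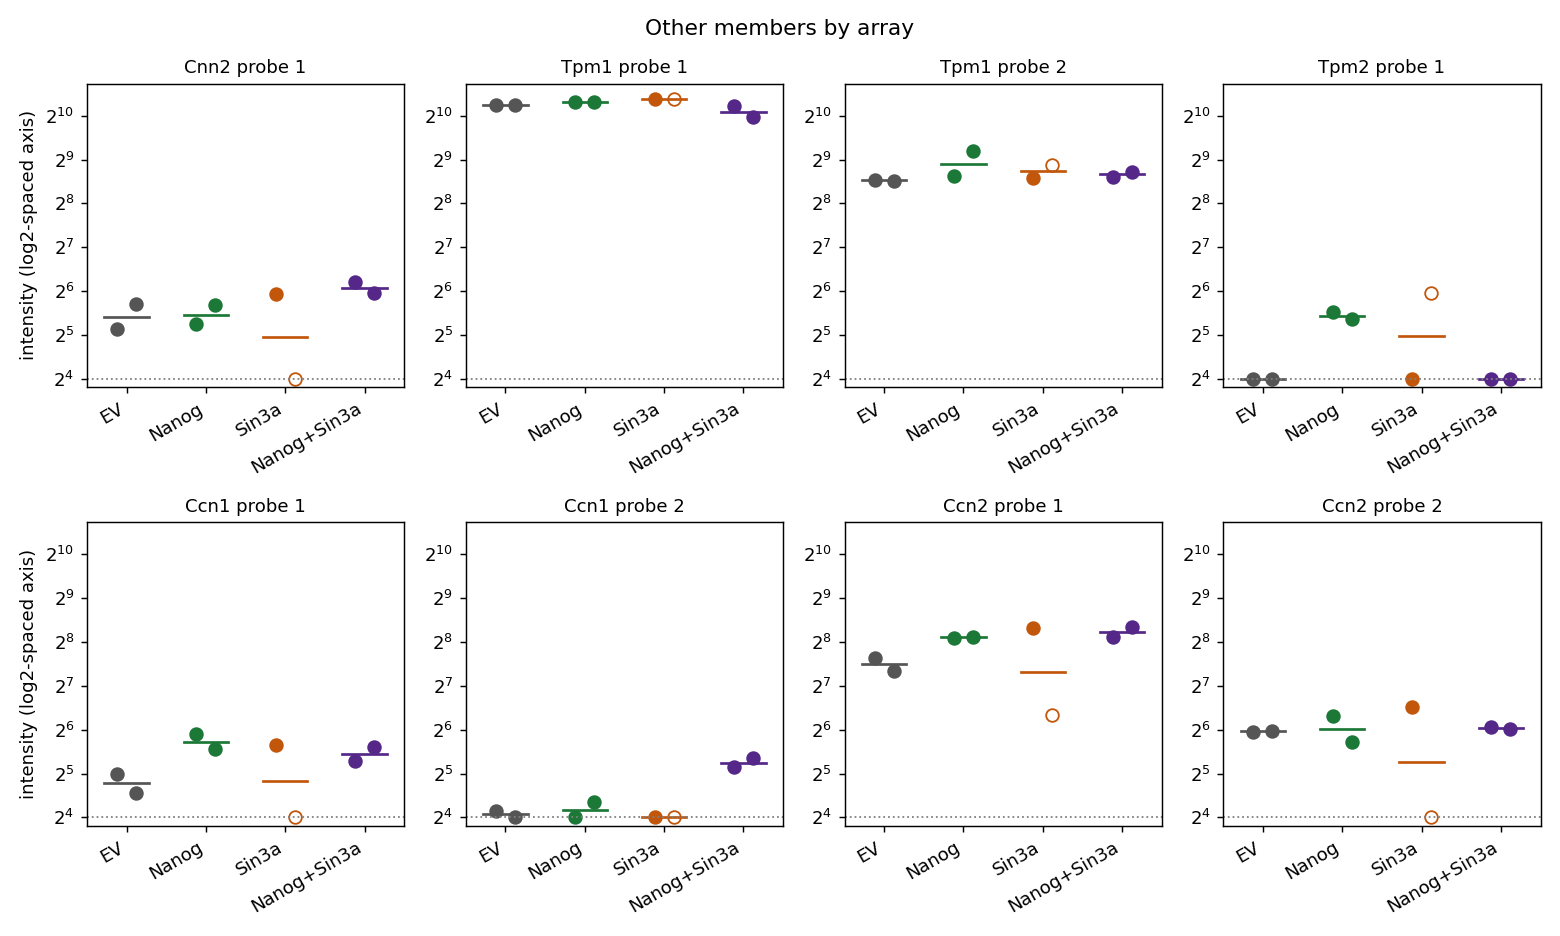
Intensity of the tested probes of Cnn2, Tpm1, Tpm2, Ccn1 and Ccn2 (vertical axis, spaced in log2, floor of 16 dotted) by array in the 4 groups (horizontal axis). Points are arrays, lines are group means of the log2 values with the floor applied, and the open point is the noisy second Sin3a array. Tpm1 is close to level across the groups, Tpm2 is above the floor in Nanog and on the open point, and the first Ccn2 probe is lowest in EV among the filled points.

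Counted over the list, 12 of the 13 tested member probes were higher with Nanog than with EV, with a median of 0.49 log2 units, against a median of 0 and 50.9% higher over all 18558 probes. One of the 13, Tpm2, was called, where 378 of all probes (2.04%) were, and that probe entered the test only through the Nanog arrays where it is high. With both transgenes 9 of 13 were above EV, with a median of 0.19, and 2 were called, the Ccn1 and Ccn2 probes above, where 1090 of all probes (5.87%) were. Between Nanog+Sin3a and Nanog the member median was -0.24 and 4 of 13 were higher, with 0 called by limma. Over all probes 3 (0.0162%) were called there, and 1937 had an unadjusted p under 0.05, 5 of them members. Arrays did not overlap, with Nanog above EV, for 9 of 13 member probes and for 25.4% of all probes. For Nanog+Sin3a against Nanog they did not overlap for 7 member probes, 2 higher and 5 lower, and for 17.9% and 19.2% of all probes. The members were chosen with results of these arrays known, the 4 Acta2 probes are 1 gene, and the comparisons with EV share its arrays, so these counts are a description.

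**Figure D4:**
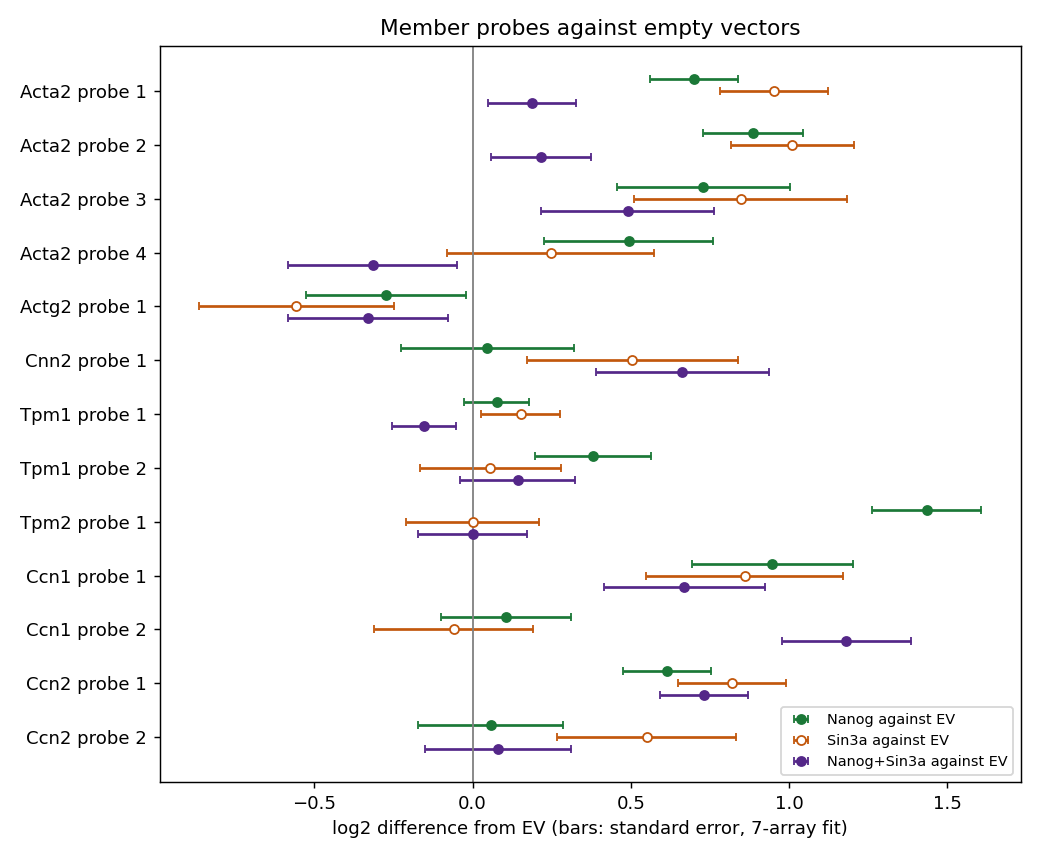
Difference from EV in log2 units (horizontal axis, bars are standard errors of the 7-array fit) for the 13 tested member probes (vertical axis), with Nanog, Sin3a (open points, 1 array) and Nanog+Sin3a side by side. On Acta2 probes 1 and 2 the Nanog and Sin3a points lie between 0.70 and 1.01 and the Nanog+Sin3a points at 0.19 and 0.22, while on Ccn2 probe 1 all 3 lie between 0.61 and 0.82.

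The wider programme of SRF and MRTF was counted in the same way. Of the 21 listed genes, 12 had tested probes, 19 in all. With Nanog against EV, 1 of these rose and none fell, beside the 2.04% called over all probes. An unadjusted p under 0.05 was found for 5 of the 19, and for 3441 of all 18558 probes. The list's median was 0.20 log2 units against 0 over all probes. In the other 7-array comparisons 0 were called by limma. Over all probes 5.87% were called for Nanog+Sin3a against EV and 0.0162% for Nanog+Sin3a against Nanog. In each, 3 of the list had an unadjusted p under 0.05, beside 4540 and 1937 of all 18558 probes. Only 4 bright probes could be tested in the comparisons with the Sin3a group, and 0 were called, with at most 1 under 0.05 unadjusted. Of all 2670 bright probes, 0.15% were called for Sin3a against EV, 11.6% for Nanog+Sin3a against Sin3a and 0.0375% for the interaction. An unadjusted p under 0.05 was held there by 206, 763 and 170 of them. The probe that rose was Csrp1, a LIM protein of the cytoskeleton, at 289.7 and 299.3 with EV and 422.2 and 439.2 with Nanog (0.55 ± 0.10 log2 units, adjusted p = 0.0490). The brighter Srf probe itself read 222.3 to 255.1 on the 7 arrays. Mrtfa and Mrtfb read at most 32.7 and Myocd, the muscle cofactor, at most 36.8 on those arrays. Vcl, which codes for vinculin at focal adhesions, read 1354.7 to 1825.9 and did not pass in any comparison.

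The cytoplasmic relatives of the members, which all cells use, showed 0 of 17 probes called by limma in the 7-array comparisons. Over all probes 2.04% were called for Nanog against EV, 5.87% for Nanog+Sin3a against EV and 0.0162% for Nanog+Sin3a against Nanog. At an unadjusted p under 0.05 there were 4, 4 and 2 of the 17 in the same order. Over all 18558 probes there were 3441, 4540 and 1937. Between Nanog+Sin3a and Sin3a, 3 of 9 bright probes passed, where 11.6% of all bright probes did. Actb, the cytoplasmic beta actin, fell by 0.47 ± 0.14 log2 units on 1 probe (adjusted p = 0.0348) and fell by 0.39 ± 0.11 on another (adjusted p = 0.0232). The first of these read 2309.6 and 2293.5 with Sin3a and 1679.7 and 1641.2 with both, but 1521.3 to 2286.9 over the EV and Nanog arrays. A different Actb probe went the other way, at 1859.9 and 2113.7 with both and 1274.2 and 1004.6 with Sin3a. Tagln2, a transgelin of non-muscle cells, rose by 0.45 ± 0.12 (adjusted p = 0.0177), from 1162.0 and 1126.9 to 1557.5 and 1574.6.

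The YAP and TEAD list, to which Ccn1 and Ccn2 are usually added, had 19 tested probes of 11 genes. With Nanog, 2 of these rose against EV, where 2.04% of all probes were called: Nuak2, a kinase, by 1.84 ± 0.24 log2 units (adjusted p = 0.0208) and Ankrd1, an ankyrin repeat protein, by 1.62 ± 0.25 (adjusted p = 0.0353). Nuak2 read 20.4 and 13.8 with EV, 59.7 and 69.6 with Nanog, and 62.2 and 48.8 with both. Its EV value of 13.8 was raised to the floor. Ankrd1 read 3.2 and 12.5, 52.1 and 46.5, and 30.8 and 19.9 in the same groups, so its fold is taken from the floor. On the 7 arrays this probe was above the floor only where a transgene was carried. That it differed from EV is thus partly set by the filter. A second Ankrd1 probe read 1.7 and 33.1 with Nanog and did not pass. It differed from EV by 0.52 ± 0.33 with Nanog (adjusted p = 0.463) and by 0.03 with both. With both transgenes 4 of the 19 were called against EV, where 5.87% of all probes were. Of these, 3 rose, Nuak2 (1.61, adjusted p = 0.0191) and 2 of Tead4, a TEAD factor (1.01 and 0.99, adjusted p = 0.0181 and 0.0294). One was lower, Axl, a receptor kinase, which fell by 0.62 ± 0.11 (adjusted p = 0.0316). The Tead4 probe at 1.01 read 118.0 and 104.0 with EV and 214.4 and 232.3 with both. The other read -7.2 and 6.3 with EV and 33.2 and 30.6 with both, so its fold is taken from the floor. On the 7 arrays it was above the floor only where a transgene was carried. A further tested Tead4 probe was 0.52 ± 0.12 higher and did not pass (adjusted p = 0.0630). The list's median difference from EV was 0.35 with Nanog and 0.49 with both, against 0 over all probes. An unadjusted p under 0.05 was held by 11 of the 19 with Nanog and 8 with both, each against EV. It was held by 2 between Nanog+Sin3a and Nanog. Over all 18558 probes the counts were 3441, 4540 and 1937.

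Axl resembled Acta2 in being highest with Sin3a alone, at 1358.1 and 1344.2 against 993.1 and 881.2 with EV. That difference, 0.53 ± 0.12 log2 units in the bright-probe fit, did not pass (adjusted p = 0.107 by limma). Axl differed from Acta2 with Nanog, at 664.7 and 562.8, and with both, at 609.8 and 606.2, where it lay below EV. From Sin3a to both it fell by 1.15 ± 0.12 log2 units (adjusted p = 4.65e-06), where 11.6% of bright probes were called. Its interaction of -0.54 did not pass.

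Of the TGF-beta list, a pathway known to raise Acta2 in fibroblasts, 10 probes of 7 genes were tested. With Nanog 0 were called by limma, where 2.04% of all probes were. An unadjusted p under 0.05 was held by 1 of the 10, beside 3441 of all 18558 probes. With both transgenes 1 passed (5.87% over all probes), Skil, a repressor of SMAD signalling. Skil fell by 1.31 ± 0.21 log2 units against EV (adjusted p = 0.0227). It read 61.8 and 56.5 with EV and 26.7 and 21.4 with both, while a brighter Skil probe read 266.3 and 246.8 with EV and 280.2 and 255.6 with both. Leaving out either EV array left 0 of all probes called in the comparisons of Nanog or of both transgenes with EV, which removes each of the pathway calls against EV.

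The likeness of other bright genes to Acta2 was described over the 7 arrays. Among the 41 bright probes with 1 symbol that ranged over at least 1 log2 unit on the 7 arrays, the highest Pearson correlation of log2 values with its brightest probe was 0.56, for Ifitm1, followed by Actb (0.37), Gdf3 (0.34), Vps25 (0.32) and Tmsb4x (0.30). Ifitm1 read 1632.7 and 1439.1 with EV, 2849.3 and 3643.2 with Nanog, 2048.8 on the first Sin3a array, and 2479.8 and 2523.4 with both. It thus stayed above EV with both transgenes. The 9 tested probes of the other members, most of them too dim for that search, had correlations from -0.71 (Actg2) to 0.71 (the brighter Ccn1 probe) and 0.72. The last is the bright Tpm1 probe, which its range of 0.43 log2 units kept out of the search. These correlations describe 7 arrays that share the group structure.

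Markers of smooth muscle cells and pericytes were mostly missing. Of 9 such genes, Des, Lmod1, Myh11, Pdgfrb and Rgs5 were at the floor on all 7 arrays, and 3 were above it on at least 2. Their summed level was 113.7 to 136.6 with EV, 164.5 to 224.1 with Nanog, 143.4 on the first Sin3a array, 512.1 on the noisy one and 138.6 to 161.9 with both. On the noisy array Pdgfrb (211), Myh11 (79.8) and Rgs5 (41) were above the floor and made up a large part of the sum. On the 7 arrays most of it came from smoothelin (Smtn). Its brightest probe read 69.6 and 64.8 with EV and 109.5 and 115.9 with Nanog. It read 100.9 on the first Sin3a array, 146.8 on the noisy second, and 94.3 and 100.5 with both. On the 7 arrays every value with a transgene was thus above EV. Nanog lay wholly above EV for 25.4% of all probes, and Nanog+Sin3a for 27.3%. With Nanog, Smtn was 0.75 ± 0.15 log2 units above EV (adjusted p = 0.0655 by limma). With both the difference was 0.54 ± 0.15 (adjusted p = 0.0868), so neither passed. The part of these marker levels in the Acta2 values was not tested.

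Of 8 fibroblast genes, Col1a2, Col3a1, Lum and Postn were at the floor on the 7 arrays and 3 were above it on at least 2. The sums were 239.6 to 247.2 with EV, 509.3 to 560.7 with Nanog, 251.5 on the first Sin3a array and 447.9 to 512.9 with both, mostly from Thy1. The noisy second Sin3a array gave 222.4, mostly from Postn (174.2) and Lum (36.5). For striated muscle, Acta1, Actc1, Ckm, Myh6 and Myod1 were at the floor on the 7 arrays. The sum over 6 neural stem cell genes, the origin of these cells, was 724.9 to 781.2 with EV, 457.9 to 522.7 with Nanog, 841.7 on the first Sin3a array, 642.9 on the noisy one and 429.8 to 476.2 with both, with Fabp7, Olig2 and Pax6 at the floor on the 7 arrays. Most of it was Egfr, whose brightest probe read 664.7 and 616.5 with EV, so the sum describes that receptor more than the list. Pluripotency genes summed to 280.1 to 282.3 with EV, 173.9 to 240.2 with Nanog, 333.7 on the first Sin3a array and 107.4 to 168.5 with both, with Dppa3, Esrrb and Utf1 at the floor on the 7 arrays. Most of this was Sall4, whose brightest probe read 258.2 and 226.1 with EV. The noisy Sin3a array gave 501.5, of which 84.7 was Esrrb. The part of these shifts in the members' values was not tested.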

How the data were processed

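Illumina bead array intensities, deposited by the authors on a linear scale and made in GenomeStudio per the submitters' processing notes, were used as given. Their background had been subtracted and they were already normalised between arrays, judged from the values. The array annotation gave 1 symbol to 34885 probes, several to 18 and none to 10378; probes were kept apart. Values under 16 were raised to 16 and log2 was taken. Probes above 16 on at least 2 fitted arrays entered limma 3.58.1 in R 4.3.3 (lmFit, eBayes with an intensity trend, 1 coefficient per group), with two-sided tests, with Benjamini-Hochberg adjustment over all probes fitted and a threshold of 0.05. The 7-array fit had 3 residual degrees of freedom and the bright-probe fit 4. The number of arrays limits the precision. The code was tested on simulated data. Members, gene lists and tests were chosen with earlier results of these data known. All member probes were described; from each list up to 4 called probes with the largest change were named, and 5 probes most like Acta2. Smtn, Thy1, Egfr, Sall4, other markers given values, Srf, its cofactors, Vcl, Ckb and the uncalled Actb and Skil probes were named after their values were seen. Alternatives changed the arrays, floor, filter, centring, probe choice, trend and replicate block.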

Additional observations from a re-analysis of the deposited data

Results flagged for a closer look

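The effect of Sin3a on Acta2 differed with and without Nanog, by -1.54 ± 0.21 log2 units on the brightest probe over all 8 arrays. Sin3a alone lay 1.02 above empty vectors, and with Nanog present the difference between Nanog+Sin3a and Nanog was -0.51. The probe was the 1 called among 2670 bright probes by the interaction in limma, and the gene was picked for a part of this value, so the difference is a description. No group held the 4 arrays needed to look for a single array far from its group.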

How the results depend on the processing

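The counts of called member probes depended on the processing; the cause was not tested. In the comparison of Nanog with EV the count of 1 became 0 on all 8 arrays with all probes and with no filter, and 2 with a floor of 32, where both were Acta2. For Nanog+Sin3a against EV the count of 2 became 0 on all 8 arrays (all probes or bright ones) and with no filter, and 1 with a floor of 32, with 1 probe per symbol or with no intensity trend. For Sin3a against EV, Nanog+Sin3a against Sin3a and the interaction the count of 1 became 0 on all 8 arrays with all probes and on 7 arrays. For Nanog+Sin3a against Nanog it was 0 under every setting run. Leaving out 1 array gave 0 to 2 where Nanog or the pair was set against EV, 0 to 1 for Sin3a against EV and for the interaction, both 0 without the second EV array, and 1 throughout for Nanog+Sin3a against Sin3a. A lone array was then assumed to vary like the others. For the brightest Acta2 probe these fits gave 0.59 to 0.81 for Nanog and 0.92 to 1.13 for Sin3a, each against EV, 0.012 to 0.36 for Nanog+Sin3a against EV, -0.69 to -0.34 for Nanog+Sin3a against Nanog, -1.01 to -0.66 for Nanog+Sin3a against Sin3a and -1.71 to -1.36 for the interaction. Of 162 values for single probes, 124 kept direction and side of the threshold, 35 lost the call, 3 gained it and 0 reversed.

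Over all probes, the 378 called for Nanog against EV became 0 on 8 arrays, 601 with a floor of 32 and 31 with no filter. The 1090 for Nanog+Sin3a against EV became 27 on 8 arrays, 1451 with a floor of 32 and 75 with no filter. Arrays with the same number showed no clear shared shift over the bright probes (correlations of their deviations from group means from -0.19 to 0.06). The labels do not say whether they were prepared together. With the number as a replicate block, 196 and 573 probes were called, the member count for Nanog+Sin3a against EV was 0, and the other 5 counts did not change. Crossing the numbers of the Nanog arrays, added after the data were seen, gave 2 member probes between Nanog and EV, and 0 between the pair and Nanog. Alternatives for Tagln, Cnn1 and Myl9 were not run, as their probes lay at the floor. The dim probes, near the background, limit what can be read of Actg2, Ccn1 and Tpm2.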
